A study of Mus musculus with 6 samples.

Results

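Prostaglandin and leukotriene synthesis was examined through 10 genes, chosen by name as the enzymes and the helper protein that turn arachidonic acid into prostaglandins, leukotrienes and hydroxylated fatty acids. Of these, 9 had an array row whose annotation names them alone, each with 1 row, among 19937 genes measured that way. The cyclooxygenase gene Ptgs1 had no such row and was not analysed here. The cells were mouse haematopoietic stem and progenitor cells transformed by HoxA9 and Meis1 (A9M cells), a model of acute myeloid leukaemia, grown in serum with stem cell factor and the interleukins IL3 and IL6. For 5 days 3 samples received DMSO, the vehicle, and 3 received UNC0638, an inhibitor of the histone methyltransferases G9a and GLP, with 1 array each, so both groups carry HoxA9 and Meis1 and share the medium. The comparison asks which transcripts differ after the inhibitor; the labels give 1 cell line, no dose and no statement that the numbered samples were separate cultures, so the p-values rest on a spread between samples that may be technical.

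Eicosanoids are short-lived lipid signals that cells make on demand. A phospholipase frees arachidonic acid from membranes, and from there the pathway branches. Cyclooxygenases convert it to prostaglandin H2, which terminal synthases turn into prostaglandin E2, prostaglandin D2, prostacyclin or thromboxane. 5-lipoxygenase, helped by its activating protein, makes leukotriene A4, which becomes the neutrophil attractant leukotriene B4 or the cysteinyl leukotrienes of mast cells and eosinophils, while other lipoxygenases make hydroxylated fatty acids. Myeloid cells carry most of this machinery, and which products they make depends on which terminal enzymes they express.

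After UNC0638, the inducible cyclooxygenase gene Ptgs2 fell to less than its lowest DMSO value on each array, and Hpgds, which encodes the haematopoietic prostaglandin D synthase, rose 2.02-fold. The other 7 genes did not pass the test. Thus 2 of the 9 genes passed an adjusted p of 0.05 in limma, against 0.672% of all genes tested, 1 of 9 downward (0.301% of all genes) and 1 of 9 upward (0.371%). The genes were chosen with earlier results of these data known, so setting their shares beside those of all genes is no test of the set. Rises made up 55.2% of the calls over all genes, 59.4% after quantile normalization and 43.5% when each array was centred on its median. The other alternatives gave 52.5% to 71%. In 4 of the 9 genes the DMSO and UNC0638 arrays did not overlap, which held for 17% of all genes. The median log2 difference (UNC0638 minus DMSO, on the log2(intensity + 16) scale used for every difference and fold) was 0.045 over the 9 genes and 0.012 over all genes.

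The stretches of genome just ahead of both genes that passed are shown because those genes moved in opposite directions. Both are from RefSeq on GRCm38.p6 and end at the base before the annotated start. In the Ptgs2 stretch (chr1:150099781-150100030, plus strand) the capitals mark TTGCGCAA, a binding motif of C/EBP factors, which are known activators of this gene. In the Hpgds stretch (chr6:65144731-65144980, minus strand) the capitals mark GAGGAAGT, a motif of the myeloid factor PU.1. A further stretch (chr1:150100036-150100065, plus strand), just past the annotated Ptgs2 start, holds a core of the cyclic AMP response element and an E-box that overlap, both in capitals.
Ptgs2 upstream: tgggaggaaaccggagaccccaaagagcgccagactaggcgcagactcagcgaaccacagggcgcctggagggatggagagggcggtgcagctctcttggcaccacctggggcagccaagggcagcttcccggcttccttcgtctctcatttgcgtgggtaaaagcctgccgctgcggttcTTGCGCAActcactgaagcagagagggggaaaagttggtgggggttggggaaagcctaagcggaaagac
Ptgs2 past the start: caccactACGTCACGTGgagtccgctttac
Hpgds upstream: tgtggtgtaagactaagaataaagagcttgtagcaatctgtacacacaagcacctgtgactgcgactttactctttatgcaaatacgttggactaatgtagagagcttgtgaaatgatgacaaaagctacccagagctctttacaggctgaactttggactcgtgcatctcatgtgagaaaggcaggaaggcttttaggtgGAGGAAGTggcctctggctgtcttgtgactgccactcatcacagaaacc

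The promoter table (250 bases before to 50 after a start) held 7 of the 9 measured genes, without Alox5ap and Alox15, and 7 motifs were searched on both strands. TTGCGCAA was found in Ptgs2 alone of the 7 genes, at -69 to -62 from the start, and in 0.183% of all 32851 promoters. The cyclic AMP response core TGACGT lay on the minus strand, 13 to 18 bases past the start, so the plus strand shown reads ACGTCA. This core and the E-box CACGTG (17 to 22) were likewise in Ptgs2 alone of the 7. They were in 7.51% and 7.15% of all promoters. GAGGAAGT was in Hpgds alone of the 7, at -49 to -42, and in 3.2% of all promoters. The NF-kB motif GGANTTTCC (1.25% of all), the interferon response element GAAANNGAA (8.56%) and the TATA box TATAAA (13.6%) were in none of the 7 windows, which says no more than that these letters are not there. Each match is a description of the sequence, and no binding was measured.

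Ptgs2 makes prostaglandin H2 in stimulated cells and is the target of many anti-inflammatory drugs. DMSO arrays 1, 2 and 3 gave intensities of 968, 601 and 861, and UNC0638 arrays 1, 2 and 3 gave 364, 337 and 327. The DMSO arrays were spread widely, with a coefficient of variation of 23.3% against 5.71% after UNC0638, and the groups did not overlap. The means were 810 ± 189 and 343 ± 19.6 (SD, n = 3 each). The log2 difference was -1.18 (SE 0.16, 95% interval -1.54 to -0.81, limma adjusted p = 0.0244), a level 2.26-fold higher in DMSO with an interval of 1.76 to 2.91. Among all genes measured it ranked 11 by size of fall. The call was lost with a pseudocount of 64 (adjusted p = 0.0755) and without DMSO 3 (0.0695), UNC0638 1 (0.0827), UNC0638 2 (0.102) or UNC0638 3 (0.0854), with log2 differences between -1.37 and -1.04 over 15 alternatives.

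Of the measured terminal synthases of prostaglandins, Hpgds rose and Ptges did not pass the test. Hpgds turns prostaglandin H2 into prostaglandin D2, a product typical of mast cells. Its intensities were 156, 183 and 221 in DMSO, against 406, 383 and 378 after UNC0638. Every UNC0638 value lay above every DMSO value, and the UNC0638 arrays were close together (coefficient of variation 3.83%, against 17.5% in DMSO). The means were 187 ± 32.6 and 389 ± 14.9 (SD, n = 3 each). The log2 difference was 1.01 (SE 0.12, 95% interval 0.74 to 1.28, limma adjusted p = 0.0128), which ranked 18 by size of rise among all genes measured. The call was lost without DMSO 2 (adjusted p = 0.0543), UNC0638 1 (0.0727), UNC0638 2 (0.0651) or UNC0638 3 (0.0526), with log2 differences between 0.86 and 1.13 over 15 alternatives.

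**Figure D1:**
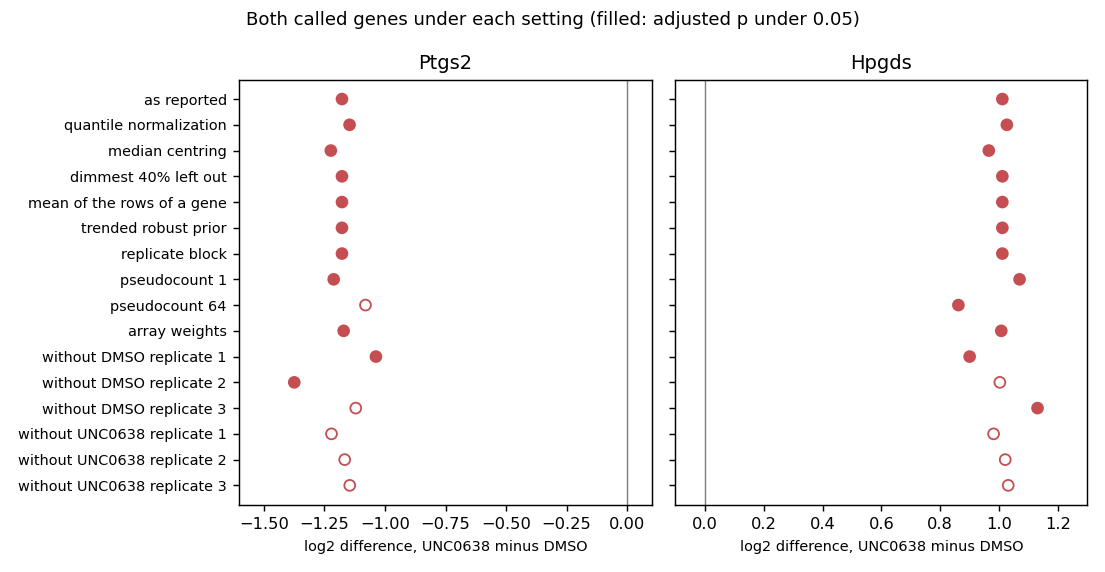
Log2 difference (UNC0638 minus DMSO) of Ptgs2 and Hpgds as reported and under 15 alternative settings; filled points have an adjusted p under 0.05. Ptgs2 ran from -1.37 to -1.04 and kept its call in 10 settings, and Hpgds ran from 0.86 to 1.13 and kept it in 11.

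Ptges, the inducible prostaglandin E synthase that often works with Ptgs2, had intensities of 39.9, 57.6 and 53.02 in DMSO and 45.9, 48.6 and 45.6 in UNC0638. The UNC0638 values lay inside the DMSO range, near the array medians of 50.4 to 54.9. Its log2 difference was -0.068 (SE 0.11, 95% interval -0.32 to 0.18, limma adjusted p = 0.877). The difference of Ptgs2 lies outside this interval. The pseudocount shrinks differences at such intensities. With a pseudocount of 1 the log2 difference was -0.085 for Ptges and -1.21 for Ptgs2. However, without a detection call the Ptges signal may be near background. For that reason the interval cannot decide whether the Ptges transcript fell as Ptgs2 did.

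**Figure D2:**
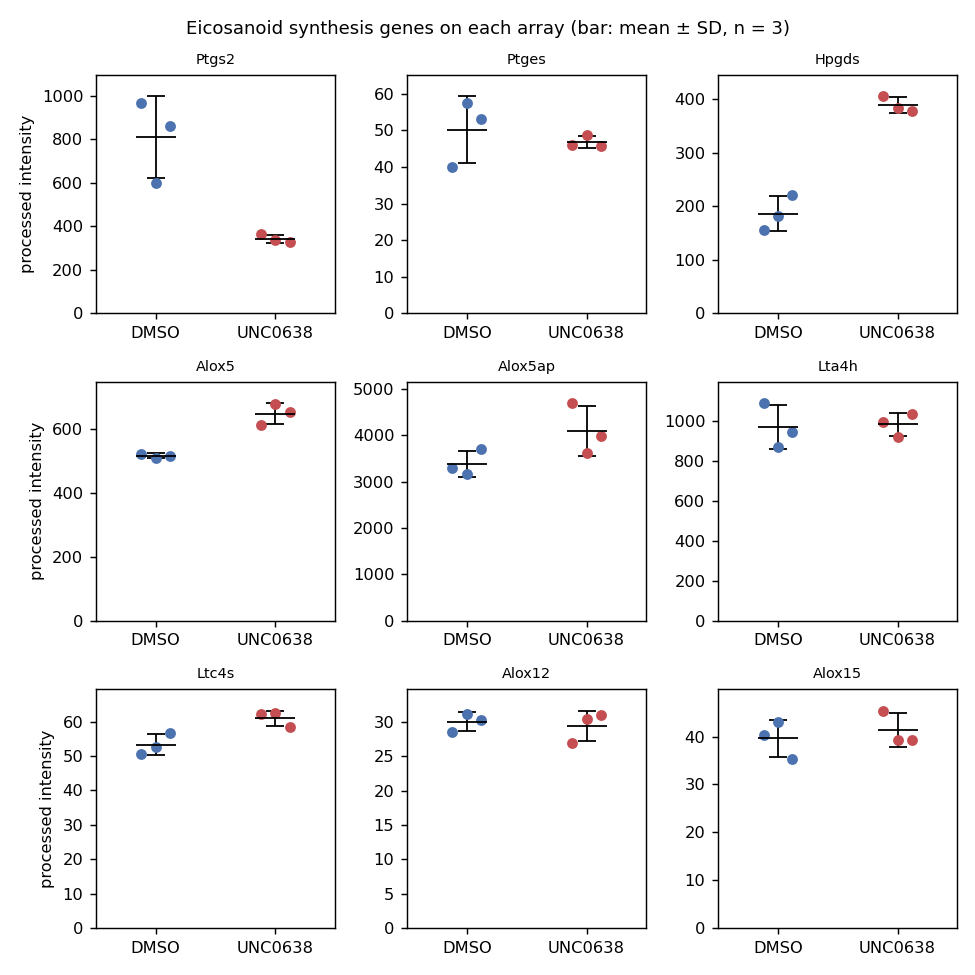
Processed intensity (linear axes starting at 0, one scale per gene) of the 9 measured genes on each of 3 DMSO and 3 UNC0638 arrays; points are arrays and bars are the mean ± SD. Ptgs2 lies at 601 to 968 in DMSO and 327 to 364 in UNC0638, Hpgds at 156 to 221 and 378 to 406, and the groups of Alox5 and Ltc4s also do not overlap.

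On the leukotriene branch, the differences of all 4 measured genes lay above 0 and none passed the test. The median over all genes also lay above 0, at 0.012, and Lta4h changed sign in 3 alternatives. Alox5, the 5-lipoxygenase that starts the branch, had intensities of 523, 509 and 517 in DMSO and 613, 677 and 652 in UNC0638. These groups did not overlap, and the DMSO arrays differed little (516 ± 6.88, against 647 ± 31.95 in UNC0638, SD, n = 3 each). The log2 difference was 0.32 (SE 0.076, 95% interval 0.14 to 0.49, limma adjusted p = 0.120, unadjusted p = 0.00274), a 1.25-fold difference. Over 15 alternatives it stayed between 0.27 and 0.35, with adjusted p from 0.0755 to 0.307.

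Alox5ap encodes the 5-lipoxygenase-activating protein, a membrane protein that presents arachidonic acid to the enzyme. It was bright on all arrays, with intensities of 3290.3, 3155 and 3702 in DMSO and 4684, 3608 and 3981 in UNC0638. The groups overlapped, since UNC0638 2 lay below DMSO 3. The log2 difference was 0.27 (SE 0.11, 95% interval 0.0095 to 0.53, limma adjusted p = 0.371, unadjusted p = 0.0437), and it ran from 0.17 to 0.35 over the alternatives.

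Lta4h, the hydrolase that makes leukotriene B4, had intensities of 1089, 873 and 947 in DMSO and 997, 921 and 1035 in UNC0638. The groups overlapped throughout. The log2 difference was 0.025 (SE 0.10, 95% interval -0.20 to 0.25, limma adjusted p = 0.956), with -0.046 without DMSO 2, -0.011 without UNC0638 3 and -0.021 when each array was centred on its median. Ltc4s, the synthase that joins leukotriene A4 to glutathione, lay near the array medians, at 50.5, 52.7 and 56.6 in DMSO and 62.1, 62.3 and 58.4 in UNC0638. Its groups did not overlap, and its log2 difference was 0.15 (SE 0.077, 95% interval -0.023 to 0.33, limma adjusted p = 0.481, unadjusted p = 0.0810).

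The other lipoxygenases were dim. Alox12, the platelet-type 12-lipoxygenase, had intensities of 28.6, 31.2 and 30.4 in DMSO and 26.9, 30.4 and 30.99 in UNC0638. Alox15, the leukocyte-type 12/15-lipoxygenase of mice, had 40.4, 43.1 and 35.4 in DMSO and 45.4, 39.4 and 39.3 in UNC0638. All these values lay between the lower quartiles (20.9 to 22.8) and the medians of the arrays, a range in which the pseudocount of 16 shrinks differences. The groups overlapped in both genes, with log2 differences of -0.020 (95% interval -0.20 to 0.16, limma adjusted p = 0.956) for Alox12 and 0.045 (-0.16 to 0.25, adjusted p = 0.907) for Alox15. No detection call came with the values, so whether either transcript was present at all is not known from them.

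**Figure D3:**
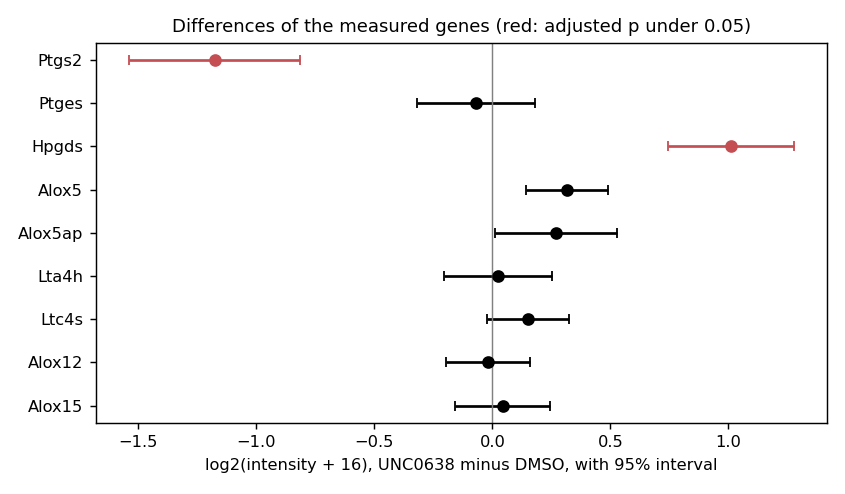
Log2 difference (UNC0638 minus DMSO, of intensity + 16) of each measured gene with its 95% interval from limma on 6 arrays; red marks an adjusted p under 0.05 over all genes. Ptgs2 lies at -1.18 and Hpgds at 1.01, and the other 7 genes lie between -0.068 and 0.32.

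The rest of the eicosanoid pathway was read through 57 further genes in 7 lists, of which 52 were measured. None of the 52 rose or fell in limma after adjustment over all genes, and 5 lay at an unadjusted p under 0.05 (9.62%, against 12.7% of all genes). The groups did not overlap in 4 of the 52 (7.69%, against 17% of all genes), 26 of the 52 differences lay below 0, and their median was 0.0074. Upstream of the cyclooxygenases, 0 of 15 genes of arachidonate release passed the test. The largest difference there was that of the secreted phospholipase Pla2g12a (-0.27, adjusted p = 0.360). Pla2g4a, the cytosolic phospholipase that supplies arachidonic acid, is the nearest measured gene on one side of Ptgs2 on chromosome 1. It averaged 923 ± 77.4 in DMSO against 805 ± 134 after UNC0638 (SD, n = 3 each), for a log2 difference of -0.20 (SE 0.13, limma adjusted p = 0.592), and its groups overlapped. Pdc, the gene on the other side of Ptgs2, was dim (16.2 ± 2.72 and 16.6 ± 0.691, log2 difference 0.022). The neighbours of Hpgds on chromosome 6 did not pass either, with log2 differences of 0.035 for the chromatin remodeller Smarcad1 and 0.069 for the gene model Gm8479. Alox12 and Alox15 lie on chromosome 11 with Alox12e between them among the measured genes, which was also dim (31.9 ± 8.06 and 28.2 ± 2.48, log2 difference -0.11).

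Downstream of prostaglandin H2, 0 of 6 other prostanoid synthases passed the test. The thromboxane synthase Tbxas1 had the largest difference (302 ± 34.1 to 337 ± 50.5, log2 difference 0.14, adjusted p = 0.722). Of 8 genes of leukotriene processing and 5-lipoxygenase partners 0 passed. The largest difference there was that of Cyp4f18, which inactivates leukotriene B4 in mouse neutrophils (123 ± 3.06 in DMSO against 187 ± 30.0 after UNC0638, log2 difference 0.54, SE 0.11, limma adjusted p = 0.0808). Of 4 other lipoxygenases 0 passed (Alox12b at 0.28, adjusted p = 0.267). Receptors of the products did not pass either: 0 of 9 prostanoid receptors, with the prostaglandin E2 receptor Ptger2 at 0.18 (adjusted p = 0.523), and 0 of 3 leukotriene receptors, with the cysteinyl leukotriene receptor Cysltr1 at 0.32 (adjusted p = 0.364). The prostaglandin D2 receptors Ptgdr and Ptgdr2, which read the product of Hpgds, were at -0.036 and -0.051 (adjusted p = 0.931 and 0.871). Of 7 genes of transport and inactivation 0 passed, and the reductase Ptgr1 was at -0.24 (adjusted p = 0.466). Hpgd, the dehydrogenase that inactivates prostaglandins, was bright at 4832 ± 335 in DMSO and 4379 ± 284 in UNC0638 (log2 difference -0.14, adjusted p = 0.595).

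**Figure D4:**
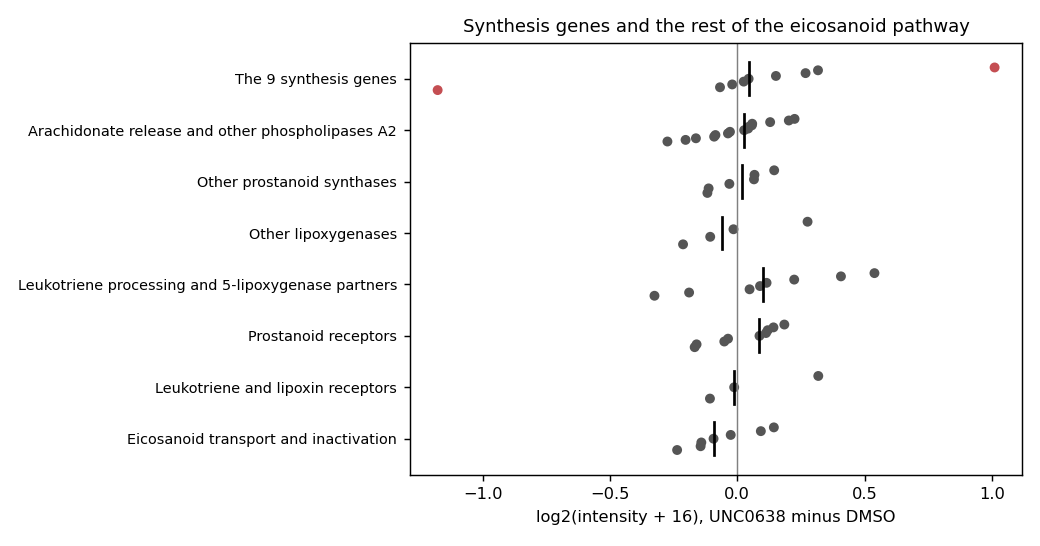
Log2 differences (UNC0638 minus DMSO, of intensity + 16) of the 9 synthesis genes and of 52 further pathway genes in 7 lists; each point is a gene, black bars are medians and red marks an adjusted p under 0.05. Ptgs2 (-1.18) and Hpgds (1.01) are the points farthest from 0, and 0 of the 52 further genes passed.

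Cells of different lineages make different eicosanoids, so markers of the lineages were read beside the synthesis genes; in bulk samples, more cells of a type and more RNA per cell cannot be told apart. All 6 progenitor markers lay above the lower quartile on all arrays. Among them the stem cell factor receptor Kit was at 351 ± 7.66 in DMSO and 364 ± 64.5 in UNC0638, and the granule enzyme Mpo at 6031 ± 191 and 6322 ± 148 (SD, n = 3 each). The stem cell antigen gene Cd34 had the largest difference, from 1550, 1624 and 1671 in DMSO to 2052, 1880 and 1939 in UNC0638, with groups that did not overlap (log2 difference 0.27, SE 0.078, limma adjusted p = 0.177). None of the 6 passed the test. Hoxa9 was at 348 ± 28.4 and 319.9 ± 22.4 and Meis1 at 3029 ± 49.6 and 3037 ± 47.9, with adjusted p of 0.686 and 0.993.

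Hpgds is known from mast cells. Of 10 mast cell and basophil markers 2 rose and 0 fell, against 0.371% and 0.301% of all genes. The marker lists were chosen with earlier results known, so setting these shares side by side is no test. The mast cell chymase Cma1 went from 206, 236 and 248 in DMSO to 405, 406 and 365 in UNC0638 (log2 difference 0.73, limma adjusted p = 0.0181). The tryptase Tpsb2 went from 317, 307 and 348 to 546, 553 and 495 (log2 difference 0.69, limma adjusted p = 0.0164). The histidine decarboxylase Hdc, which makes histamine, was at -0.42 (adjusted p = 0.0983), the mast cell carboxypeptidase Cpa3 at 0.14 and the receptor chain Ms4a2 at 0.11, neither past the test. The basophil protease Mcpt8 had a mean of 2038 ± 95.5 in DMSO against 2743 ± 78.7 after UNC0638 (log2 difference 0.43, limma adjusted p = 0.0568). The summed intensity of the 10 markers was 9385 to 10979 in DMSO and 11192 to 12297 in UNC0638. Without Mcpt8, a sum added after seeing the data, it was 7325 to 9045 and 8358 to 9605, and the groups overlapped. Of the list, 8 of the 10 differences lay above 0 and 0 of the 10 lay below the lower quartile on all arrays. Their part in the rise of Hpgds was not tested. The calls of Cma1 and Tpsb2 were lost in 4 and 5 of 15 alternatives.

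Of 7 neutrophil markers 2 rose and 0 fell, against 0.371% and 0.301% of all genes. Those that rose were the chemokine receptor Cxcr2 (262 ± 42.6 to 632 ± 25.6, log2 difference 1.23, adjusted p = 0.00684) and the granule protein gene Ltf (68.0 ± 15.6 to 126 ± 6.38, log2 difference 0.77, adjusted p = 0.0437). The call of Ltf was lost in 8 of 15 alternatives, median centring among them, and that of Cxcr2 in 1. All 7 differences lay above 0 (median 0.29, against 0.012 over all genes), and the sum was 8879 to 9182 in DMSO and 9782 to 12407 in UNC0638. Of 7 macrophage markers 0 passed. All 7 lay above 0 (median 0.36), and Adgre1 had the largest difference at 0.63 (adjusted p = 0.155). C1qa was only at 2.9e-05, which ranked 10751 by size of rise among 19937 genes. Their sum was 4253 to 5345 in DMSO and 6258 to 6721 in UNC0638. Alox5 and Alox5ap are expressed in both lineages, and the part of these markers in their differences was not tested. Of 5 eosinophil markers 0 passed. The lectin Siglecf was at 0.83 (adjusted p = 0.0808) and the granule peroxidase Epx, from 376, 420 and 344 in DMSO to 292, 274 and 227 in UNC0638, at -0.50 (adjusted p = 0.105). The eosinophil list had sums of 5032 to 6315 and 5251 to 6039 that overlap. Prg2, whose groups overlapped, made up most of them (5047 ± 696 in DMSO and 5155 ± 406 in UNC0638). In 4 of the 5 markers the groups did not overlap, against 17% of all genes. Besides Siglecf and Epx these were Ccr3 (0.31, limma adjusted p = 0.234) and Il5ra (0.15, limma adjusted p = 0.570), which lay below the lower quartile on all arrays. Of 3 measured megakaryocyte markers 0 passed (Pf4 at -0.66, adjusted p = 0.164), and their sum was 810 to 1053 in DMSO and 591 to 803 in UNC0638. The other two, Itga2b (0.21) and Gp9 (0.029), lay above 0, and without Pf4 the sum was 220.3 to 247 in DMSO and 234 to 284 in UNC0638.

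**Figure D5:**
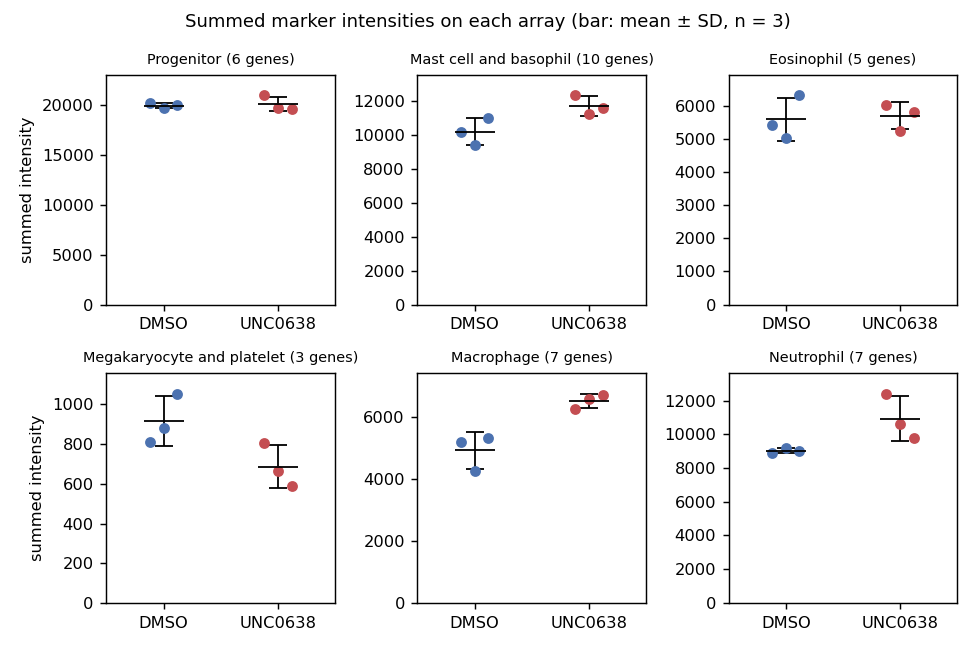
Summed processed intensity (linear axes from 0) of the measured markers of 6 cell types on each array; points are arrays and bars are the mean ± SD over 3 arrays. The mast cell and basophil sum is 9385 to 10979 in DMSO and 11192 to 12297 in UNC0638 (overlapping without Mcpt8), the macrophage sum 4253 to 5345 and 6258 to 6721, and the progenitor sums overlap.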

How the data were processed

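The labels' protocols describe Trizol extraction and biotinylated cRNA made from 6 ug of total RNA for Affymetrix arrays. The authors deposited 1 processed intensity per probe set and array on a linear scale; the sources used here do not give their background correction, summarisation or scaling, which can shrink differences of dim genes. Array medians were 50.4 to 54.9, and the number of arrays limits the precision.

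Of 34760 rows, 21640 name 1 gene; per gene the row with the highest mean over the 6 arrays was kept (19937 genes). Symbols were looked up in the GRCm38.p6 gene table, and 0 changed. Values were taken as log2(intensity + 16) and fitted by group in limma 3.58.1 (R 4.3.3, lmFit and eBayes), with p-values adjusted by Benjamini-Hochberg over all 19937 genes and called at 0.05. The procedure was tested on simulated data. Alternatives were other scalings, pseudocounts, priors, weights, filters and arrays left out in turn.

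The members and lists were chosen with earlier results of these data known. Named are all members and, per list, up to 2 rises and 2 falls past the threshold or else the largest difference, with neighbours of called members and Hoxa9, Meis1 and Kit. Pla2g4a, Hpgd, Ptgdr, Ptgdr2, Alox12e, Mpo, Hdc, Mcpt8, Cpa3, Ms4a2, Tpsab1, Epx, Prg2, Ccr3, Il5ra, C1qa, Itga2b, Gp9, Jun, Cebpb, Cebpd, Nfkb1, Il1b and Tnf were named beside these for their roles or after their values were seen. Plots used matplotlib 3.10.9 (Python 3.11.15).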

Additional observations from a re-analysis of the deposited data

How the results depend on the processing

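Over 15 alternatives, 133 values of single synthesis genes were computed, of which 115 kept direction and side of the threshold, 9 lost the call and 9 changed sign. The sign changes were all of genes near 0: Lta4h (-0.021 with median centring), Alox15 (-0.0013 with quantile normalization and -0.0014 with median centring) and, with 1 array left out in turn, Lta4h (-0.046 to 0.11), Ptges (-0.18 to 0.013), Alox12 (-0.045 to 0.021) and Alox15 (-0.012 to 0.089). The 2 calls among the 9 genes became 1 with a pseudocount of 64 (Hpgds), 0 at a threshold of 0.01, and 0 to 2 when 1 array was left out. The count of changed genes, 134, became 49 with a pseudocount of 64, 18 at a threshold of 0.01 and 10 to 69 with 1 array left out. Of genes in the pathway and marker lists 4 passed as reported, 7 with the dimmest 40% of genes left out, 7 with the trended robust prior and 0 to 3 with 1 array left out. Correlations of same-numbered deviations from the group means were -0.066, 0.11 and 0.017, against -0.13 to 0.11 for samples of unlike number. Such correlations over 3 arrays per group cannot decide whether samples were paired. With the replicate block 73 genes and 1 list gene passed, and both Ptgs2 (adjusted p = 0.0313) and Hpgds (0.0379) did. The cause of these moves was not tested. Centring each array on its median moved the median over all genes from 0.012 to -0.034. The dim genes Alox12 and Alox15 gave no value under the filter, no synthesis gene had another row to test, and the planned contrast of Ptgs2 with Ptgs1 was not run because Ptgs1 was not analysed here.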

Other observations

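Transcription factors known to drive Ptgs2 were read beside it. Of 7 listed factors 6 were measured, and the NF-kB gene Nfkb1 was not among them. Of the 6, 0 passed in limma over all genes and 2 lay at an unadjusted p under 0.05. Differences lay above 0 in 5 of 6 (median 0.22, against 0.012 over all genes). The AP-1 subunit Fos had intensities of 70.1, 63.0 and 69.0 in DMSO and 92.1, 124 and 110.1 in UNC0638, with groups that did not overlap (log2 difference 0.57, SE 0.11, adjusted p = 0.0596). Its partner Jun was at 338, 391 and 319 in DMSO against 498, 572 and 498 after UNC0638 (log2 difference 0.56, SE 0.10, adjusted p = 0.0568). With the dimmest 40% of genes left out both passed, and Fos also did with the trended robust prior. The C/EBP genes Cebpb (0.11, adjusted p = 0.692) and Cebpd (0.33, adjusted p = 0.449) did not pass.

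Of 11 inflammatory genes often induced together with Ptgs2, 0 passed and 9 lay above 0 (median 0.11, against 0.012 over all genes). Of them, 1 lay at an unadjusted p under 0.05. The cytokine gene Il6 had the largest difference, downward (270.1 ± 71.3 to 204 ± 53.6, SD, n = 3 each, log2 difference -0.38, adjusted p = 0.517). Il1b was at 0.26 (adjusted p = 0.716) and Tnf at 0.19 (adjusted p = 0.642), so these data give no called fall of the list beside that of Ptgs2. Whether Ptgs2 differs from the list was not tested.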
